A study of Mus musculus with 16 samples.

Results

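The interferon-stimulated genes described here are 49 genes that type I, type II or type III interferons are known to switch on. They were chosen by name, with earlier results of these data known. Each was found under its symbol among the 24091 genes of a table of transcript levels. RNA came from epithelial cells of the caecum, the fermenting pouch of the large intestine, of C57BL/6 mice, an inbred laboratory strain. Of the 16 samples of the series, 9 are RNA libraries, and they form 3 groups of 3. The vehicle group drank water with Splenda, a sweetener, at 10 g/L for 7 days and received a mock gavage of 25% glycerol on day 7. The ampicillin group drank the same sweetened water with ampicillin, an antibiotic, at 1 g/L and received the same mock gavage. The tributyrin group drank the same water with ampicillin and was given tributyrin, a fat made of glycerol and butyrate, in place of the mock gavage. Tissue was taken 6 hours after the gavage in each group, so each group had Splenda and a gavage, and no group received tributyrin without ampicillin. The labels give no age, sex, number of animals or tributyrin dose, and do not say whether each library came from a separate animal, so the p-values measure the spread between these libraries.

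Interferons are secreted proteins that warn cells of infection. Type I interferons act through the receptor chains Ifnar1 and Ifnar2, type III interferons, to which gut epithelium responds strongly, through Ifnlr1 and Il10rb, and type II interferon (Ifng) through Ifngr1 and Ifngr2. Type I and III receptors activate a complex that includes STAT2 and IRF9 and binds the interferon-stimulated response element in promoters, while type II interferon acts through the gamma-activated site. The genes switched on this way include antiviral enzymes, sensors of foreign nucleic acid, GTPases that attack intracellular microbes, and the transcription factors that carry the signal further. Gut bacteria are known to keep some of this programme on in healthy intestine. Butyrate, which tributyrin releases on digestion, is a bacterial fermentation product, a fuel of the epithelium and an inhibitor of histone deacetylases.

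The promoters of 4 genes are shown, chosen by size of change among the genes tested below that carry the response element. Oas3, Isg15 and Bst2 had the 3 lowest log2 fold changes with ampicillin. Bst2, Isg15 and Igtp had the 3 highest with tributyrin, of which that of Isg15, 0.54, was not called. Each line gives the 160 bases before the annotated start, 5′ to 3′ on the gene's own strand, from RefSeq on build GRCm38.p6, and capitals mark the core of the response element, searched as GAAA, any 2 bases, GAAA, on both strands. Oas3 (chr5:120777660-120777819, minus strand) fell the most with ampicillin and did not rise with tributyrin. The start used for its window lies inside the gene span, which ends at 120777684, so its last printed bases fall within that span. Isg15 (chr4:156200819-156200978, minus strand) fell and varied widely between libraries. Bst2 (chr8:71537473-71537632, minus strand) and Igtp (chr11:58199396-58199555, plus strand) fell and then rose.
Oas3: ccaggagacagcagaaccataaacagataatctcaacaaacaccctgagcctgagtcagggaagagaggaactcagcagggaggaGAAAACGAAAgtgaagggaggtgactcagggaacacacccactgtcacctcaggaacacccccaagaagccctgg
Isg15: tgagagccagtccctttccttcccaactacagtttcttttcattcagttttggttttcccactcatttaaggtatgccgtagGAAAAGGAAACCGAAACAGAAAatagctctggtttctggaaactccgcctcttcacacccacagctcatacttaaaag
Bst2: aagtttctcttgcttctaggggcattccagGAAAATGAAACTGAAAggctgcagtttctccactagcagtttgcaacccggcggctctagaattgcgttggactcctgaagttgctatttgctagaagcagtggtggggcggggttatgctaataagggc
Igtp: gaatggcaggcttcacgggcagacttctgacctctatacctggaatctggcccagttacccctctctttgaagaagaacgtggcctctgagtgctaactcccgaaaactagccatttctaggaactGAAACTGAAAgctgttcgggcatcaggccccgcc
The Isg15 promoter held 3 overlapping cores between 78 and 57 bases before the start, and Bst2 held 2 overlapping cores between 130 and 115 bases before it. Oas3 held 1 core, 75 to 66 bases before the start used for its window, and Igtp held 1, 34 to 25 bases before its start.

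RefSeq promoter windows of 250 bases before the start were found for 38 of the 49 genes, and 19 of these, or 50%, held the core. Among all 27025 genes with a window the share was 3.46%. The gamma-activated site was searched as TTC, any 3 bases, GAA, which reads the same on both strands. It was found for 9 of the 38 genes, or 23.7%, against 8.13% of all genes with a window. In Bst2 the site, at 136 to 128 bases before the start, overlaps the first core, and in Igtp it lies at 45 to 37 bases before the start. The core was in the windows of 5 of the 7 genes with a window that fell with ampicillin and rose with tributyrin, namely Oas1a, Bst2, Igtp, Irgm1 and Irgm2. It was in 3 of the 12 that fell and had no called rise, namely Isg15, Ifit1 and Oas3, in 4 of the 10 tested genes that did not fall, and in 7 of the 9 that were too low to test. The difference between these shares was not tested, and a match of letters is not evidence of binding. No window was found for Parp9, Parp14, Mx1, Iigp1, Dhx58, Rtp4, Usp18, Zbp1, Ifi27, Mx2 and Oas2.

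**Figure D1:**
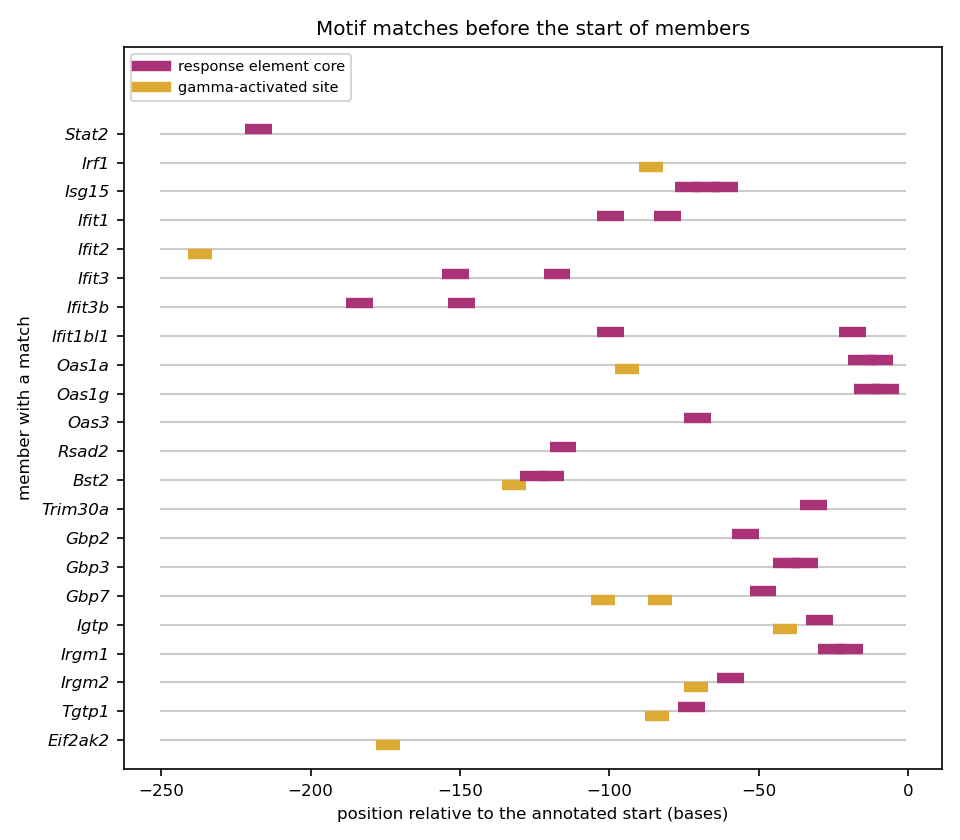
Position of each motif match in the 250 bases before the annotated start, in bases, for the 22 interferon-stimulated genes with a match; purple blocks are the response element core and yellow blocks the gamma-activated site, and grey lines are the searched windows. Several cores lie within 130 bases of the start, and Oas1a, Oas1g, Irgm1, Gbp3, Bst2 and Isg15 have cores that overlap within the same promoter.

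Expression was given as TPM, a transcript level scaled to length and to a fixed library total, and sequencing depth cannot be read from it. Tests were run on log2(TPM + 1), a scale on which the change of genes at low level is understated. Testing was limited to the 12155 genes whose TPM averaged 1 or more across libraries. Of the 49 interferon-stimulated genes 37 passed and 12 did not. Usp18 averaged under 1 TPM with ampicillin and passed through the other groups, Oas3 averaged under 1 TPM in both ampicillin-treated groups and passed through vehicle alone, and Mx1 passed through the tributyrin group. Counts over the 37 therefore describe genes selected by level, and a gene that passed only through the group where it is high had to differ. A difference was called where its two-sided p, adjusted by Benjamini-Hochberg over all tested genes in a limma fit, was under 0.05. The epithelial markers summed to between 13755 and 18179 TPM per library, so the labelled cell type had its defining transcripts, with 6 of 10 markers lower under ampicillin. Vehicle replicate 2 stood apart in transcripts of the small intestine, with Apoa1 at 75.2 TPM against 2.30 and 9.19 in the other vehicle libraries and 0.309 to 0.591 elsewhere. Defa30 measured 0.93, 18.7 and 5.81 TPM in vehicle replicates 1, 2 and 3 and 0 in each ampicillin-treated library. Without vehicle replicate 2, 23 interferon-stimulated genes were called lower with ampicillin, and without vehicle replicate 3, 21, against 25 with each library.

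Levels ranged widely among these genes. With vehicle, Lgals3bp, a secreted glycoprotein, had the highest level of the 49, at 142 TPM, followed by Irf1 at 82.4 ± 13.3 (SD, n = 3), Ifi27 at 54.0 ± 3.56, Irf7 at 51.9 ± 5.47 and Oas1a at 47.4 ± 5.26. Irf1 exceeded the other 3 in each vehicle library, while the libraries of Ifi27, Irf7 and Oas1a overlapped. At the other end Ifi44 and Iigp1 averaged 0.128 and 0.145 TPM.

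Most of the interferon-stimulated genes that could be tested were lower with ampicillin than with vehicle. Of 37, 25 fell and 1, Oas1g, rose, against 10.2% and 11.0% of all tested genes, so that 67.6% of the tested interferon-stimulated genes fell. Their median log2 fold change was -0.53, and that of all tested genes 0.02. The genes were chosen with earlier results of these data known, so these shares describe the list and are no independent test. Tributyrin raised 10 of the 37 over the ampicillin group, or 27% against 15.6% of all genes, and lowered 2, Cmpk2 and Samd9l, against 7.54%. The median log2 fold change with tributyrin was 0.18, and that of all genes 0.05. Against vehicle, the tributyrin group was lower for 20 of the 37, or 54.1% against 9.21% of all genes, and higher for 2, Oas1g and Mx1, against 19.1%. Of the 20, 17 had fallen with ampicillin, and Stat2, Cmpk2 and Ifih1 had no called change there. In a bulk measurement, fewer cells that carry a transcript and less transcript per cell cannot be told apart.

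The genes that fell with ampicillin and rose again with tributyrin were 8: Oas1a, Bst2, Ifi35, Zbp1, Igtp, Irgm1, Irgm2 and Helz2. This pattern held for 4.90% of all tested genes, and for 21.6% of the 37. Both comparisons use the same ampicillin libraries, so a fall and a rise of one gene are not independent, and the values of each comparison are given separately. Another 17 fell and had no called rise. Centring the libraries another way moved the balance of all genes with tributyrin, from 1902 higher and 917 lower to 1466 and 1647 after quantile normalization and to 1514 and 1512 after median-ratio scaling. The interferon-stimulated genes were 7 higher and 4 lower after the former and 9 and 2 after the latter. For the tributyrin group against vehicle, all genes moved from 2325 higher and 1119 lower to 1683 and 1663 after quantile normalization and 1564 and 1757 after median-ratio scaling, and the interferon-stimulated genes from 2 and 20 to 1 and 24 and to 2 and 23.

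**Figure D2:**
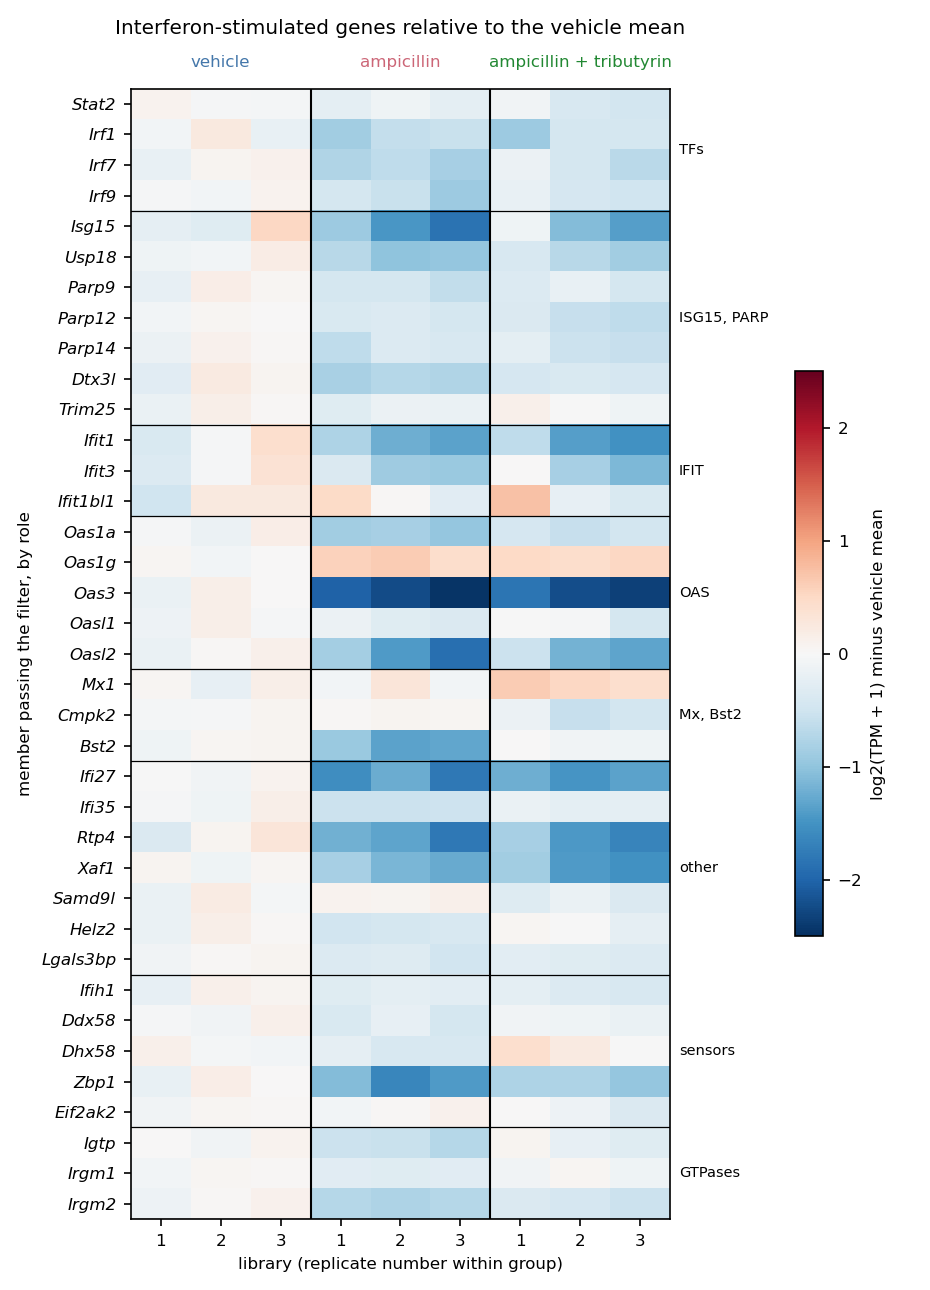
Each row is 1 of the 37 interferon-stimulated genes that passed the filter, ordered by role, and each column a library; colour gives log2(TPM + 1) minus the mean of the 3 vehicle libraries, blue below and red above. Most rows turn blue with ampicillin, Bst2 returns to white with tributyrin, and Oas3, Ifi27, Rtp4 and Xaf1 stay blue.

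Of the transcription factors, 3 of 4 fell with ampicillin and none had a called rise with tributyrin. Irf1, a factor induced by type II interferon and inflammatory cytokines, measured 78.0, 97.3 and 71.9 TPM in vehicle replicates 1 to 3, 44.5, 54.0 and 55.1 with ampicillin, and 43.2, 59.8 and 59.8 with tributyrin. Each vehicle library was above each of the other 6, and the 2 ampicillin-treated groups overlapped. Its log2 fold change was -0.67 ± 0.16 (SE, limma adjusted p = 0.0167) with ampicillin and 0.07 ± 0.16 (adjusted p = 0.773) with tributyrin. Irf7, the factor that amplifies type I interferon production, measured 45.6, 54.7 and 55.5 TPM with vehicle, 30.1, 33.2 and 28.8 with ampicillin and 46.4, 38.1 and 32.2 with tributyrin. The tributyrin libraries of Irf7 spread from the ampicillin range into the vehicle range. Irf7 fell by 0.74 ± 0.13 (limma adjusted p = 0.00493), and its value with tributyrin, 0.32 ± 0.13, was not called (adjusted p = 0.111). Irf9, the DNA-binding partner of STAT2, fell from 14.5 ± 0.85 to 9.03 ± 1.59 TPM and measured 11.0 ± 1.33 with tributyrin. Stat2 measured 11.3 ± 0.64, 9.67 ± 0.59 and 8.88 ± 1.38 TPM in the 3 groups and was called only in the tributyrin group against vehicle (log2 -0.32, limma adjusted p = 0.0411). That call ended without any 1 of 8 libraries, with adjusted p up to 0.128 (limma) without tributyrin replicate 2. Without ampicillin replicate 1 the fall of Irf1 was -0.58 and no longer called (limma adjusted p = 0.0599), and without tributyrin replicate 3 the rise of Irf7 was 0.44 and called (adjusted p = 0.0318).

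In the group around ISG15, a ubiquitin-like protein that is attached to other proteins, and the PARP9 and DTX3L pair, which acts in ADP-ribosylation and ubiquitination, 6 of 7 fell and none had a called rise. Isg15 measured 8.76, 8.18 and 15.4 TPM with vehicle, 5.02, 3.14 and 2.17 with ampicillin and 9.54, 4.33 and 3.35 with tributyrin. The vehicle and ampicillin libraries did not overlap, and tributyrin replicate 1 reached the vehicle range while the other two stayed in the ampicillin range. Its fall of 1.40 ± 0.37 on the log2 scale had a limma adjusted p of 0.0291, and it was not called without vehicle replicate 1 or 3 or ampicillin replicate 2 or 3 (adjusted p 0.0534 to 0.0990, changes -1.51 to -1.14). Usp18, the protease that removes ISG15 and dampens the type I receptor, fell from 2.65 ± 0.41 to 0.97 ± 0.24 TPM, and with tributyrin was 1.33 ± 0.38. Its fall was 0.89 ± 0.15 on the log2 scale (limma adjusted p = 0.00393). Dtx3l measured 8.41, 12.3 and 11.0 TPM with vehicle, 5.51, 5.96 and 5.77 with ampicillin and 7.57, 7.81 and 7.60 with tributyrin. The 3 groups of Dtx3l did not overlap. Its fall was 0.77 ± 0.11 (limma adjusted p = 0.00199), and its value with tributyrin was 0.36 ± 0.11, just short of the call (adjusted p = 0.0506). Without vehicle replicate 1 or 2 that value was called (limma adjusted p = 0.00720 and 0.0278). Over the 19 alternative settings it was called in 7. Parp9, the partner of Dtx3l, fell by 0.50 ± 0.11, and the mono-ADP-ribosyltransferases Parp12 and Parp14 fell by 0.39 ± 0.08 and 0.46 ± 0.12. Parp9 and Dtx3l lie beside each other on chromosome 16 (35938470 to 35972621 and 35926515 to 35939027) and overlap by 558 bases, so their reads may not be fully separate. Parp12 was lower still with tributyrin, at 10.7 ± 1.19 TPM against 11.9 ± 0.41, a difference of -0.14 that was not called (limma adjusted p = 0.217). Without tributyrin replicate 1 the difference of Parp12 was -0.22 and called (limma adjusted p = 0.0430), as it was after quantile normalization (-0.21, adjusted p = 0.0480). The call of Parp14 ended without ampicillin replicate 1 or 3 or vehicle replicate 2 or 3 (limma adjusted p 0.0601 to 0.0862). Trim25, the ubiquitin ligase that activates the sensor RIG-I, was not called in any comparison, at 24.7, 21.3 and 24.7 TPM in the 3 groups.

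The IFIT proteins bind foreign RNA and block its translation, and their genes lie together on chromosome 19. Ifit1, Ifit3 and Ifit1bl1 passed the filter, and of these Ifit1 fell. Ifit1 measured 3.67, 4.91 and 7.06 TPM with vehicle, 2.54, 1.60 and 1.38 with ampicillin and 2.89, 1.34 and 1.13 with tributyrin. The vehicle libraries were above the rest, and the 2 ampicillin-treated groups overlapped. The fall was 1.11 ± 0.28 (log2, limma adjusted p = 0.0222), and the call ended without vehicle replicate 2 or 3 or ampicillin replicate 2 or 3 (adjusted p 0.0516 to 0.0784). Ifit3 went from 2.84 ± 0.94 to 1.32 ± 0.53 and 1.53 ± 1.08 TPM, a difference of -0.72 with ampicillin that was not called (limma adjusted p = 0.136). Ifit1bl1 measured 2.72 ± 0.99, 2.92 ± 1.05 and 2.98 ± 1.75 TPM and was not called. Ifit1 lies within the annotated span of Ifit1bl1 (34592888 to 34662981), as does Ifit3b, so the division of reads between them is uncertain. Summed, Ifit1 and Ifit1bl1 had 7.94 ± 2.56 TPM with vehicle, 4.77 ± 1.66 with ampicillin and 4.77 ± 2.71 with tributyrin.

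Active oligoadenylate synthetases make a messenger that activates RNase L when they bind double-stranded RNA. Their family held both the largest fall and the only called rise with ampicillin among the 37 tested genes. The largest fall was that of Oas3, which passed the filter through vehicle alone. Oas3 (chromosome 5, 120753098 to 120777684) measured 6.36, 8.12 and 7.24 TPM with vehicle, 1.03, 0.75 and 0.49 with ampicillin and 1.32, 0.77 and 0.63 with tributyrin. The vehicle libraries stood far above the other 6, and those overlapped. The vehicle mean was 9.55 times the ampicillin mean. The log2 fold change was -2.23 ± 0.17 (limma adjusted p = 6.3e-05) with ampicillin and 0.11 ± 0.17 (adjusted p = 0.662, 95% interval -0.27 to 0.49) with tributyrin. Oas1a measured 46.2, 42.8 and 53.1 TPM with vehicle, 25.4, 26.1 and 23.5 with ampicillin and 35.2, 31.4 and 34.2 with tributyrin. Its 3 groups did not overlap, with tributyrin between the other two. It fell by 0.89 ± 0.08 (limma adjusted p = 0.000206), rose by 0.41 ± 0.08 (adjusted p = 0.0100) and remained 0.48 ± 0.08 below vehicle (adjusted p = 0.00446). Oas1g, a near copy of Oas1a that lies next to it on chromosome 5 (120876142 to 120887613, and 120896256 to 120907544 for Oas1a), went the other way. It measured 9.79, 8.96 and 9.44 TPM with vehicle, 14.5, 15.2 and 13.1 with ampicillin and 13.6, 13.0 and 13.9 with tributyrin. The vehicle libraries were below each of the others, and its rise with ampicillin was 0.55 ± 0.06 (limma adjusted p = 0.000633). Near copies can share reads, which these values do not show, so the split between the pair is uncertain. Their sum was 56.8 ± 5.44 TPM with vehicle, 39.2 ± 2.40 with ampicillin and 47.1 ± 2.35 with tributyrin. Oasl2 fell from 5.35 ± 0.65 to 1.52 ± 0.90 TPM (log2 -1.39 ± 0.28, limma adjusted p = 0.00856) and measured 2.23 ± 1.01 with tributyrin, with no called rise. Oasl1 was not called in any comparison, at 9.61, 7.77 and 8.56 TPM.

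Bst2, or tetherin, holds budding virus particles at the cell membrane, and it had the fullest return of the genes that fell. It measured 17.5, 19.6 and 20.0 TPM with vehicle, 9.47, 6.94 and 7.08 with ampicillin and 19.1, 17.8 and 17.5 with tributyrin. The ampicillin libraries lay below the other 6, and the vehicle and tributyrin libraries overlapped. Bst2 (chromosome 8, 71534255 to 71537472) fell by 1.19 ± 0.11 (limma adjusted p = 0.000177) and rose by 1.13 ± 0.11 (adjusted p = 0.000544). Its difference from vehicle after tributyrin was -0.06, with a 95% interval of -0.31 to 0.18 (limma adjusted p = 0.689). Mx1, a gene of the Mx GTPase family, had no called change with ampicillin and rose with tributyrin. It measured 0.87, 0.59 and 1.02 TPM with vehicle, 0.74, 1.22 and 0.73 with ampicillin and 1.83, 1.59 and 1.42 with tributyrin. The tributyrin libraries were above the other 6, but at a low level, and Mx1 passed the filter through that group. The rise of 0.47 ± 0.14 (limma adjusted p = 0.0468) lost its call without any 1 of 7 libraries (adjusted p up to 0.140, without ampicillin replicate 1). Over the 18 alternative settings that tested Mx1 the call was lost in 11 (limma adjusted p up to 0.162). Cmpk2, a mitochondrial nucleotide kinase, went the opposite way, at 4.41 ± 0.22, 4.60 ± 0.06 and 3.15 ± 0.66 TPM. Its fall with tributyrin was 0.44 ± 0.11 (limma adjusted p = 0.0195), and it was not called without any 1 ampicillin replicate or without tributyrin replicate 2 (adjusted p 0.0529 to 0.0641).

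Of the sensors of foreign nucleic acid, 2 of 5 fell and 2 rose with tributyrin. Zbp1, which binds Z-form nucleic acid and can start necroptosis, measured 5.81, 7.59 and 6.80 TPM with vehicle, 2.64, 1.5 and 1.88 with ampicillin and 3.52, 3.50 and 2.92 with tributyrin. The 3 groups did not overlap, and the tributyrin libraries lay closer to those of ampicillin. Zbp1 fell by 1.37 ± 0.15 (limma adjusted p = 0.000404) and rose by 0.53 ± 0.15 (adjusted p = 0.0323). The rise was not called without ampicillin replicate 2 or 3 or tributyrin replicate 1 or 2 (limma adjusted p 0.0852 to 0.101). Nor was it called without a filter, after quantile normalization, with only the compared groups fitted, or with replicate number as a block. Dhx58, the regulator LGP2, measured 4.07, 3.51 and 3.44 TPM with vehicle, 2.99, 2.53 and 2.53 with ampicillin and 5.25, 4.46 and 3.65 with tributyrin. The ampicillin libraries were below the rest, but the difference of -0.34 ± 0.12 was not called (limma adjusted p = 0.0706), while the rise with tributyrin was (0.56 ± 0.12, adjusted p = 0.0112). Without tributyrin replicate 1 or 3 the difference with ampicillin was called too (limma adjusted p = 0.0472 and 0.0336). Over the 18 alternative settings that tested Dhx58, that difference was called in 7. Ddx58, which encodes RIG-I, fell by 0.35 ± 0.09 (limma adjusted p = 0.0224), a call that ended without ampicillin replicate 1 or 3 or vehicle replicate 1 or 3 (adjusted p 0.0504 to 0.0817). It went from 5.17 ± 0.47 to 3.86 ± 0.44 and 4.68 ± 0.17 TPM. Ifih1, which encodes MDA5, measured 17.8 ± 2.31, 14.5 ± 0.29 and 13.9 ± 0.83 TPM, and its difference with ampicillin was not called (limma adjusted p = 0.0630). Ifih1 was called lower without vehicle replicate 1 (limma adjusted p = 0.00663), and also after either rescaling, without short RNA entries and with array weights (adjusted p 0.0220 to 0.0486). Eif2ak2, the double-stranded RNA kinase PKR, was not called in any comparison, at 12.6, 12.8 and 11.2 TPM.

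The interferon-inducible GTPases Igtp, Irgm1 and Irgm2, which act on membranes around intracellular microbes and lie on chromosome 11, were the 3 of their family of 8 that passed the filter. Each fell with ampicillin and rose with tributyrin. Igtp measured 5.18, 4.82 and 5.51 TPM with vehicle, 3.23, 3.19 and 2.78 with ampicillin and 5.43, 4.33 and 3.96 with tributyrin. The ampicillin libraries lay below the other 6. Igtp fell by 0.60 ± 0.10 (limma adjusted p = 0.00459) and rose by 0.45 ± 0.10 (adjusted p = 0.0176). Irgm1 measured 25.1, 27.1 and 26.6 TPM with vehicle, 21.3, 21.2 and 21.5 with ampicillin and 24.5, 27 and 24.2 with tributyrin. Its ampicillin libraries were again the lowest, but by a smaller margin than those of Igtp, with a fall of 0.29 ± 0.05 (limma adjusted p = 0.00649) and a rise of 0.23 ± 0.05 (adjusted p = 0.0174). Irgm2 measured 4.39, 5.0 and 5.36 TPM with vehicle, 2.62, 2.46 and 2.58 with ampicillin and 3.62, 3.43 and 3.05 with tributyrin. The 3 groups of Irgm2 did not overlap. It fell by 0.73 ± 0.08 (limma adjusted p = 0.000588), rose by 0.30 ± 0.08 (adjusted p = 0.0364) and remained 0.44 ± 0.08 below vehicle (adjusted p = 0.00694). The rise of Igtp was not called without ampicillin replicate 3 (limma adjusted p = 0.0589). That of Irgm1 was not called without ampicillin replicate 1 or 2 or tributyrin replicate 2 (limma adjusted p 0.0554 to 0.0600). That of Irgm2 was not called without any 1 of 6 libraries (limma adjusted p up to 0.111, without ampicillin replicate 2). Irgm2 also lost this call without a filter, after quantile normalization and with replicate number as a block (limma adjusted p up to 0.213).

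Among 7 further genes that passed the filter 6 fell, and 2 of these rose again. Ifi27 (chromosome 12, 103434189 to 103440245), a mitochondrial and nuclear envelope protein, measured 53.5, 50.7 and 57.7 TPM with vehicle, 17.7, 22.3 and 15 with ampicillin and 22.6, 18.6 and 20.7 with tributyrin. The vehicle libraries were far above the others, which overlapped. Its log2 fold change was -1.52 ± 0.13 (limma adjusted p = 0.000144) with ampicillin and 0.18 ± 0.13 (adjusted p = 0.358) with tributyrin. Rtp4, a receptor transporter induced by interferon, measured 3.52, 5.04 and 6.15 TPM with vehicle, 1.53, 1.31 and 0.68 with ampicillin and 2.25, 1.14 and 0.84 with tributyrin, with vehicle above the rest. Xaf1, a promoter of apoptosis, measured 8.33, 7.19 and 8.16 TPM with vehicle, 3.98, 3.0 and 2.70 with ampicillin and 3.86, 2.33 and 2.12 with tributyrin, again with no overlap of vehicle and the others. Rtp4 fell by 1.44 ± 0.26 (limma adjusted p = 0.00514) and Xaf1 by 1.08 ± 0.18 (adjusted p = 0.00321), and neither had a called rise. Ifi35 measured 34.5, 32.7 and 39.4 TPM with vehicle, 24.0, 24.2 and 24.6 with ampicillin and 31.3, 29.8 and 30.0 with tributyrin. Its 3 groups did not overlap, and it fell by 0.53 ± 0.07 (limma adjusted p = 0.000889) and rose by 0.31 ± 0.07 (adjusted p = 0.0120). Helz2, a helicase-like coactivator of nuclear receptors, measured 10.3, 13.0 and 12.1 TPM with vehicle, 8.17, 8.46 and 8.69 with ampicillin and 12.2, 11.7 and 9.97 with tributyrin. The ampicillin libraries of Helz2 were the lowest, with a fall of 0.44 ± 0.09 (limma adjusted p = 0.0120) and a rise of 0.37 ± 0.09 (adjusted p = 0.0229). That rise was not called without any 1 of the ampicillin replicates or without tributyrin replicate 1 or 2 (limma adjusted p 0.0504 to 0.0798). Lgals3bp fell from 142 ± 7.28 to 109 ± 6.61 TPM (log2 -0.39 ± 0.06, limma adjusted p = 0.00251) and measured 115 ± 3.74 with tributyrin. Samd9l, an antiviral factor that restrains translation, had no called change with ampicillin and fell with tributyrin by 0.38 ± 0.09 (limma adjusted p = 0.0209), from 25.5 ± 0.61 to 19.4 ± 1.42 TPM. The call of Samd9l ended without any 1 ampicillin replicate or without tributyrin replicate 1 or 3 (limma adjusted p 0.0522 to 0.0629).

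**Figure D3:**
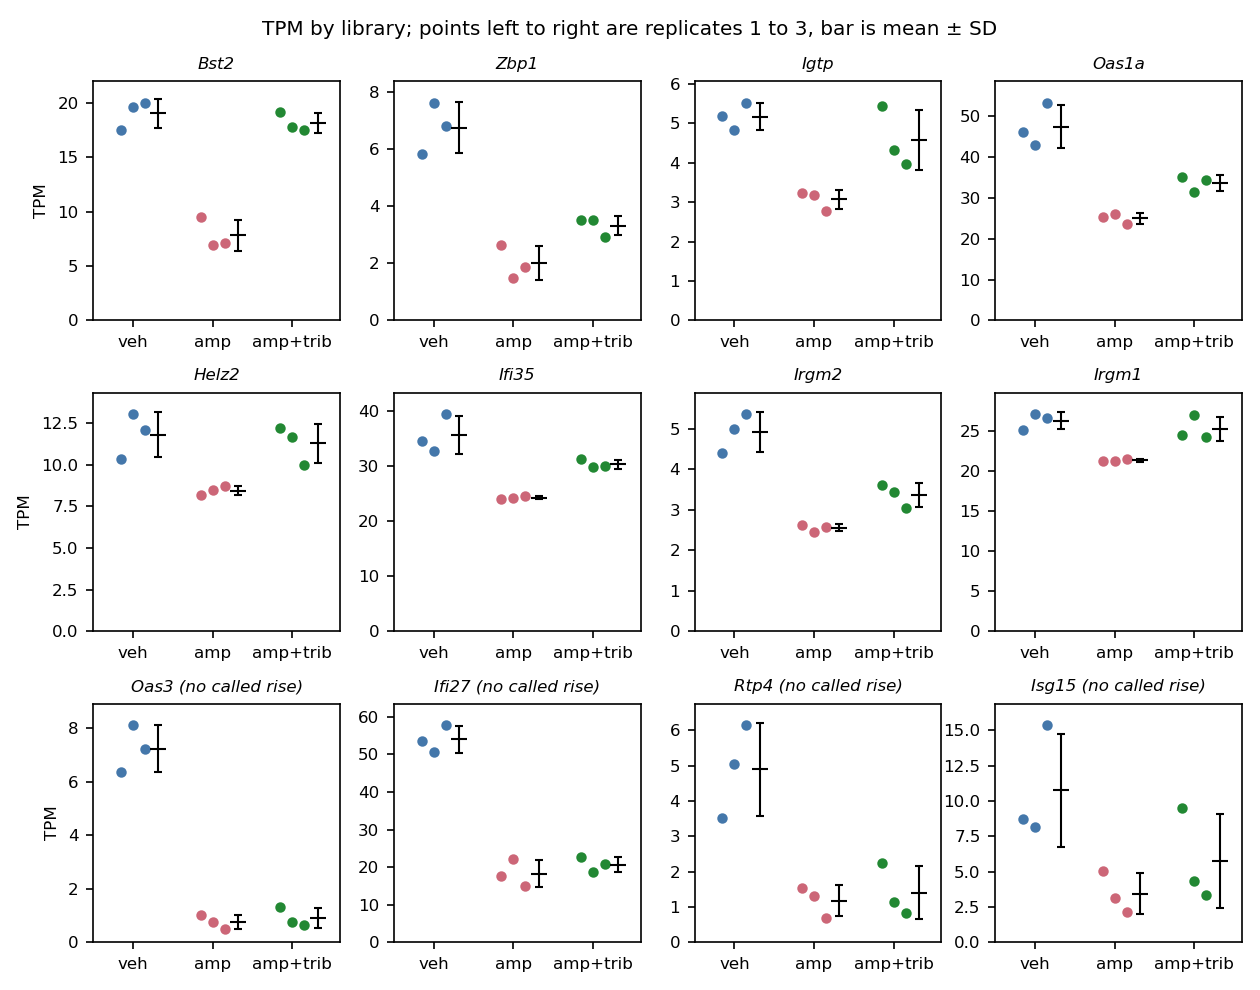
TPM in each library for the 8 genes that fell with ampicillin and rose with tributyrin and, in the bottom row, the 4 with the largest falls that had no called rise; points are replicates 1 to 3 of each group and the black bar is the mean ± SD of 3 libraries. Bst2 returns to 17.5 to 19.1 TPM with tributyrin, while Oas3 stays at 0.63 to 1.32 TPM.

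The extent of return differed widely among the 25 genes that fell. On the log2(TPM + 1) scale the median gene regained 38.7% of its fall, from -35.7% for Parp12, whose mean was lower again with tributyrin but not called, to 94.7% for Bst2. A regain above 50% was seen for 6 genes, namely Bst2, Helz2 at 86.0%, Irgm1 at 80.8%, Igtp at 74.5%, Ddx58 at 66.0% and Ifi35 at 58.8%. The smallest positive regains included Parp14 at 0.606%, Oas3 at 5.03%, Rtp4 at 8.82%, Irf1 at 11.0% and Ifi27 at 11.7%, while Ifit1 and Xaf1 were at -5.44% and -16.8%. These percentages use the ampicillin libraries on both sides and have no test of their own.

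Against vehicle, 17 of the 25 remained lower after tributyrin. Of the 8 that rose, Oas1a, Ifi35, Zbp1 and Irgm2 were still lower, and Bst2, Igtp, Irgm1 and Helz2 were not called. The 95% intervals of the difference from vehicle were -0.39 to 0.09 for Igtp, -0.18 to 0.07 for Irgm1 and -0.28 to 0.15 for Helz2 on the log2 scale, so differences of those sizes are possible. The call of Ifi35 against vehicle (log2 -0.22, limma adjusted p = 0.0394) ended without any 1 of 8 libraries, with adjusted p up to 0.113 without tributyrin replicate 2. Of the 17 with no called rise, 13 were still lower than vehicle, and Irf9, Isg15, Ddx58 and Parp9 were not called. Among the 13, the calls of Irf1, Irf7, Usp18, Ifit1, Oasl2, Dtx3l and Parp14 each ended without at least 1 library, with limma adjusted p up to 0.122 for Irf7 without vehicle replicate 3. Isg15 was called without tributyrin replicate 1 (log2 -1.24, limma adjusted p = 0.0343). The adjusted p of Irf9 and Parp9 was 0.0555 and 0.0504 (limma), and both were called without some libraries, Irf9 without ampicillin replicate 1 or 3 or tributyrin replicate 1 and Parp9 without vehicle replicate 1 (adjusted p 0.0184 to 0.0485). The largest remaining differences were those of Oas3 at -2.12 ± 0.17, Ifi27 at -1.35 ± 0.13, Rtp4 at -1.31 ± 0.26, Xaf1 at -1.26 ± 0.18 and Ifit1 at -1.17 ± 0.28. Vehicle libraries serve both comparisons with vehicle.

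**Figure D4:**
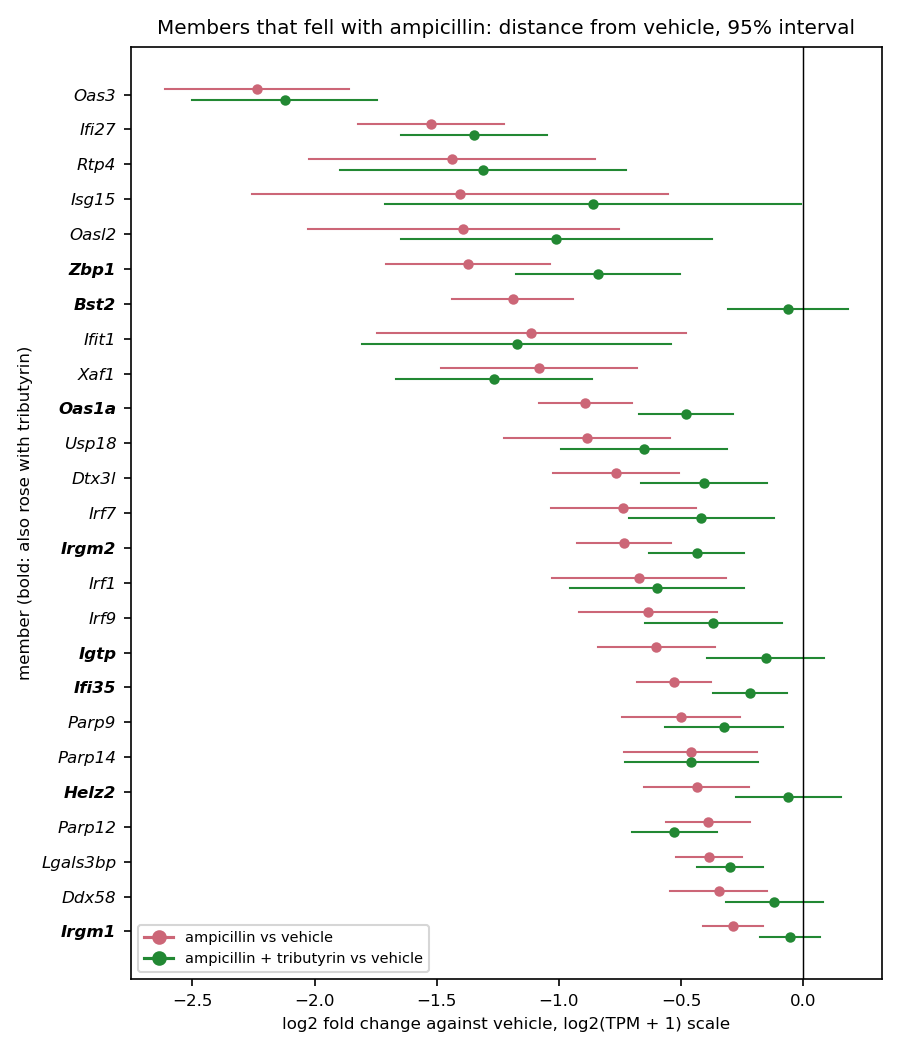
Log2 fold change against vehicle, on the log2(TPM + 1) scale, for the 25 interferon-stimulated genes that fell with ampicillin, with the ampicillin group in red and the tributyrin group in green; lines are 95% intervals of the fit and bold names mark the 8 that rose with tributyrin. The green point of Bst2 lies at -0.06 and that of Oas3 at -2.12, beside its red point at -2.23.

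The counts moved with single libraries, as did those over all tested genes. Without 1 library, the genes lower with ampicillin numbered 21 to 26, those higher with tributyrin 5 to 10, and those with both 4 to 10. The number higher with tributyrin was 5 without ampicillin replicate 3 or tributyrin replicate 2 and 6 without ampicillin replicate 1, ampicillin replicate 2 or tributyrin replicate 1, and no gene was called lower with tributyrin without any 1 ampicillin replicate. The number with both was 4 without ampicillin replicate 2, ampicillin replicate 3 or tributyrin replicate 2, 5 without ampicillin replicate 1 and 10 without tributyrin replicate 3. Over all tested genes, those higher with tributyrin numbered 1019 to 2211 without 1 library, against 1902 with each, and 1019 was the number without tributyrin replicate 2. Those lower with ampicillin numbered 886 to 1318, against 1244. Among the 37, those lower than vehicle after tributyrin numbered 10 without vehicle replicate 3, 12 without vehicle replicate 2, 11 without tributyrin replicate 2 and 12 without tributyrin replicate 3. Across the alternative settings run, 21 of the 26 ampicillin calls held in each setting that tested the gene, and the exceptions were Irf1, Isg15, Ifit1, Ddx58 and Parp14. Of the 12 tributyrin calls, those of Oas1a, Bst2, Ifi35 and Dhx58 held in each.

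Within groups the interferon-stimulated genes were not spread evenly over the libraries, most of all in the tributyrin group. Tributyrin replicates 1, 2 and 3 were the highest of their group for 31, 5 and 1 of the 37, against 39%, 39.8% and 21.1% of all tested genes. Vehicle replicates 1, 2 and 3 were highest for 4, 15 and 18, against 28.2%, 39.4% and 32.3% of all genes, so replicate 2 was close to its share. Ampicillin replicates 1, 2 and 3 were highest for 16, 15 and 6, against 21.9%, 35.8% and 42.3% of all genes. The median deviation from the group mean was 0.15 for tributyrin replicate 1 and -0.12 for tributyrin replicate 3 on the log2 scale, and for all tested genes it was 0.02 and -0.06.

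**Figure D5:**
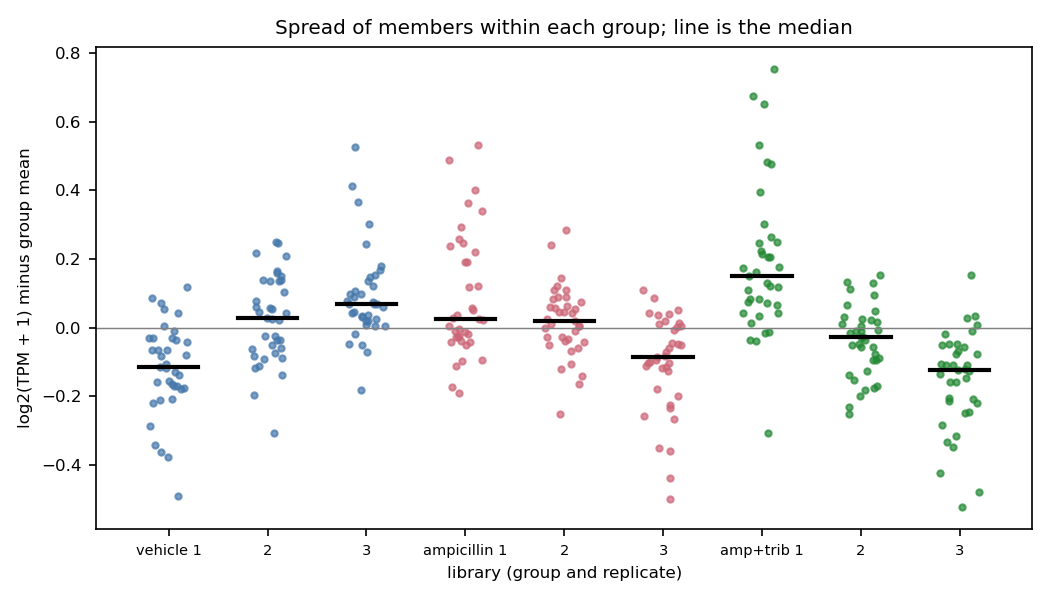
Each point is 1 of the 37 tested interferon-stimulated genes in 1 library, plotted as log2(TPM + 1) minus the mean of its group, and the black line is the median per library. Tributyrin replicate 1 lies highest, with a median of 0.15, and tributyrin replicate 3 and vehicle replicate 1 lie lowest.

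The 12 genes below the filter were Ifit2, Ifit3b, Oas2, Mx2, Rsad2, Ifi44, Trim30a, Gbp2, Gbp3, Gbp7, Iigp1 and Tgtp1. In a limma fit without a filter, 2 of them fell with ampicillin, against 6.70% of all genes in that fit, and 1 rose with tributyrin, against 11.0%. Gbp2, a guanylate-binding protein that coats intracellular pathogens, measured 0.98, 0.98 and 1.07 TPM with vehicle, 0.50, 0.41 and 0.26 with ampicillin and 0.48, 0.56 and 0.33 with tributyrin. Vehicle lay above the other libraries, which overlapped, and the fall was 0.54 ± 0.08 (limma adjusted p = 0.00379). Ifit2 measured 0.80, 1.24 and 1.14 TPM with vehicle, 0.60, 0.33 and 0.25 with ampicillin and 1.22, 0.99 and 0.84 with tributyrin, so that the ampicillin libraries were the lowest. It fell by 0.57 ± 0.12 (limma adjusted p = 0.0200) and rose by 0.53 ± 0.12 (adjusted p = 0.0243). Mx2 had the same order of means, 0.303, 0.122 and 0.275 TPM, with no call. Ifit3b, at 0.696, 0.271 and 0.225 TPM, was lower in the tributyrin group than with vehicle (log2 -0.48, limma adjusted p = 0.0311) and not called otherwise, and Gbp2 was lower there too (-0.47, adjusted p = 0.00637). Trim30a, an inhibitor of inflammatory signalling, measured 0.805, 0.549 and 0.839 TPM and Gbp7 0.604, 0.460 and 0.510 TPM, with no call. Viperin, encoded by Rsad2, measured 0.874, 0.896 and 0.844 TPM, and Iigp1, Ifi44, Gbp3, Tgtp1 and Oas2 averaged under 0.36 TPM in each group.

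The genes upstream and around these were read from lists drawn up for the pathway. Their counts can be read against the shares of all tested genes, 10.2% lower and 11.0% higher with ampicillin and 7.54% lower and 15.6% higher with tributyrin. None of the 12 interferon genes in the table passed the filter, and 7 were at 0 in each library. Ifng averaged 0.506 ± 0.223, 0.770 ± 0.458 and 1.06 ± 0.53 TPM. Of 19 receptor and signalling genes 1 fell and 1 rose with ampicillin. The one that fell was Ifnar2, the signalling chain of the type I receptor, at 7.43 ± 0.50 TPM with vehicle, 5.11 ± 0.29 with ampicillin and 7.96 ± 0.52 with tributyrin. It fell by 0.46 ± 0.07 (limma adjusted p = 0.00245) and rose by 0.55 ± 0.07 (adjusted p = 0.00159). Its partner Ifnar1 was not called in either comparison, at 12.0, 12.6 and 13.6 TPM, nor was Ifngr1, at 124, 126 and 125 TPM. With tributyrin 2 of the list fell and 2 rose. Those that fell were Ifngr2, from 115 ± 4.34 to 94.8 ± 4.38 TPM (log2 -0.28 ± 0.07, limma adjusted p = 0.0177), and Il10rb (-0.27 ± 0.06, adjusted p = 0.0125), and those that rose were Ifnar2 and the phosphatase Ptpn6 (0.40 ± 0.12, adjusted p = 0.0397). Ifnlr1, the type III receptor chain, was not called, at 3.70 ± 0.80, 4.73 ± 0.23 and 3.40 ± 0.50 TPM. Socs3, a cytokine-induced inhibitor of JAK kinases, rose with ampicillin from 3.26 ± 0.46 to 6.33 ± 1.12 TPM (log2 0.78 ± 0.12, limma adjusted p = 0.00238).

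Of 13 tested genes that act in sensing and in the induction of interferon, 1 fell and 2 rose with ampicillin, and 4 rose with tributyrin. Tmem173, which encodes STING, fell by 0.46 ± 0.10 (limma adjusted p = 0.0105) and rose by 0.62 ± 0.10 (adjusted p = 0.00361), at 2.29, 1.39 and 2.67 TPM. The other rises with tributyrin were those of Mb21d1, which encodes the DNA sensor cGAS (0.36 ± 0.11), the adaptor Mavs (0.30 ± 0.07) and Irf3 (0.26 ± 0.06), and the rises with ampicillin were those of Traf6 and Ikbke. Of 10 feedback genes 1, Usp18, fell with ampicillin and 1, Socs3, rose. Both were already counted above, so they are no further genes. With tributyrin 1 rose, the deacetylase Hdac3 (0.38 ± 0.04, limma adjusted p = 0.000895). Of 50 other interferon-stimulated genes that passed the filter, 20 fell and 2 rose with ampicillin, and 12 rose and 2 fell with tributyrin, with medians of -0.24 and 0.14. Psmb8, an immunoproteasome subunit, fell the most, from 21.4 ± 2.57 to 7.18 ± 0.74 TPM, and measured 16.2 ± 0.37 with tributyrin, with log2 fold changes of -1.45 ± 0.09 and 1.07 ± 0.09. Ifi47, a GTPase of the same family as Igtp, fell by 1.22 ± 0.12 and rose by 0.78 ± 0.12, and Lgals9, a galectin, fell by 0.69 ± 0.09 and rose by 0.99 ± 0.09. Ifit1bl2, a neighbour of Ifit1, rose with ampicillin by 1.71 ± 0.18 (limma adjusted p = 0.000401) and fell with tributyrin by 0.73 ± 0.18 (adjusted p = 0.0231), and as a near copy in the IFIT family its split from the others is uncertain.

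Markers of other cells moved in part with the groups. Of 11 tested markers of T cells and intraepithelial lymphocytes none was called with ampicillin, and 5 rose with tributyrin, among them Gzma (1.72 ± 0.25) and Ccl5 (1.23 ± 0.24), which is itself induced by interferon in many cells. The list summed to 47.6 to 49.5 TPM with vehicle, 38.2 to 66.0 with ampicillin and 77.7 to 145 with tributyrin. In tributyrin replicates 1, 2 and 3 it summed to 101, 145 and 77.7 TPM, of which Ccl5 alone was 40.6, 55.0 and 29.1 TPM. Haemoglobin and other erythroid transcripts summed to 8.30 to 25.3 TPM with vehicle and 13.4 to 36.6 with ampicillin, and to 134, 113 and 94.3 in tributyrin replicates 1, 2 and 3. Myeloid markers summed to 51.4, 47.1 and 37.0 TPM in the same 3 libraries. The interferon-stimulated genes were most often highest in replicate 1 and least often in replicate 3. The erythroid sum had that order and the lymphocyte sum did not. The myeloid sum had it with C1qa at 21.2, 14.5 and 11.2 TPM. Of the other tested myeloid markers, Cd14 and Cd68 were highest in replicate 1, and Lyz2, Tyrobp and Fcer1g in replicate 2. Of 6 tested myeloid markers C1qa and Cd14 fell with ampicillin, and the whole list of 16 summed to 70.3 to 83.5, 43.7 to 48.1 and 37.0 to 51.4 TPM. C1qa and Cd14 made up most of that sum, at 46.7 and 19.0 TPM with vehicle, while Lyz2, Cd68, Tyrobp and Fcer1g had values of 0.10 to 0.28 (log2) with ampicillin, none called, and C1qb averaged 0.0148 TPM with vehicle. The endothelial marker Pecam1 fell by 1.59 ± 0.11 with ampicillin and rose by 0.58 ± 0.11, at levels of 3.79, 0.586 and 1.38 TPM. It was the only one of 5 endothelial markers to pass the filter, and of the others Vwf averaged 0.320, 0.292 and 0.482 TPM and Cdh5, Kdr and Emcn were at or near 0. The 4 markers of plasmacytoid dendritic cells, a main source of type I interferon, summed to 0.787 to 1.24 TPM over the 9 libraries, and no natural killer, B cell or fibroblast marker passed the filter. The part of these cells in the changes of the interferon-stimulated genes was not tested.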

How the data were processed

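RNA was measured in 9 libraries, 3 per group, with groups and replicate numbers from the sample titles; the other 7 samples were not analysed here. The authors deposited TPM per gene for 24091 genes, and the submitters' processing notes list Salmon 0.8.2, DESeq2 1.20.0 and mm10 without a role. The annotation, strand setting and depth are not given there. Library sums were 999833 to 999866 TPM, and Pearson correlations of log2 values between libraries of a group were 0.976 to 0.981 (9 pairs).

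Values were taken as log2(TPM + 1), and genes with a mean TPM of at least 1 were kept (12155, leaving out 11936). One mean per group was fitted to the 9 libraries with limma 3.58.1 (R 4.3.3), a variance trend, 6 residual degrees of freedom and no replicate block, and tested on simulated data first. All 49 members matched RefSeq by gene ID. Members and lists were chosen with earlier results of these data known. Members could all be named, and up to 4 called genes per pathway list, besides the interferon receptor chains; one item that the rule takes is not reported here. The 19 alternatives changed the pseudocount, filter, scaling, weights, trend, block, entries, groups or libraries fitted. Plots were made in matplotlib 3.10.9 (Python 3.11.15).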

Additional observations from a re-analysis of the deposited data

How the results depend on the processing

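None of the calls on the 37 tested genes reversed direction under the 19 alternatives. With a filter at a mean TPM of at least 5, only 21 of the genes were tested, and the calls were 15 with ampicillin (14 lower), 6 with tributyrin (5 higher and 1 lower), 13 for tributyrin against vehicle (12 lower and 1 higher), and 5 genes fell and rose. Quantile normalization gave 4 genes lower with tributyrin and 1 higher than vehicle, and the cause was not tested.

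With the replicate number as a block, 25 genes fell and 1 rose with ampicillin, 8 rose and 2 fell with tributyrin, 21 were lower and 1 higher than vehicle, and 8 fell and rose, of which 6 were shared. Deviations of same-numbered libraries correlated at -0.05 to 0.108 over 12155 genes, and not every library correlated best with its own number. Such correlations over all genes cannot decide whether the numbers pair the libraries. Ampicillin and tributyrin replicates 1 were both highest of their groups for 16 of the 37 genes (43.2%), against 8.02% of all tested genes.

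Without 1 library in turn, the calls with tributyrin ranged from 5 to 12, with 0 to 2 lower and 5 to 10 higher. Calls against vehicle after tributyrin ranged from 12 to 21, with 10 to 20 lower and 1 to 3 higher, and 4 to 10 genes fell and rose. The TPM values keep no depth, so counting error could not be given, and genes under about 1 TPM are the least certain. How reads were divided between near copies, such as OAS and IFIT genes, is not known. Groups of 3 libraries limit each test.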
